A study of Mus musculus and Rattus norvegicus with 14 samples.

Results

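The hearts labelled Model were compared with the hearts labelled Sham, using 3 Model and 3 Sham libraries, which are 6 of the 14 libraries of the series. Libraries were chosen by their titles alone. The study set out to compare compounds against myocardial fibrosis, the build-up of scar-like matrix in heart muscle, and the labels of the Model and Sham groups name no compound. Per the labels, every library is mouse heart tissue read by messenger RNA sequencing, and the treatment is given only as Sham or Model. The strain, sex and age of the mice, the procedure behind the word Model, its duration, the part of the heart taken and the time of day do not appear in the labels. Separate animals are not stated for the replicates either, so each p-value covers the spread among these libraries alone, and that spread may be technical.

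The 6 libraries held 13897535 to 16306836 reads assigned to genes. Spearman correlations across genes were 0.962 to 0.974 between libraries of a group and 0.854 to 0.895 between groups. The mitochondrial genome took 14.6% to 23.6% of reads in the Sham libraries and 10.8% to 15.3% in the Model libraries. Levels below are scaled FPKM (reads per kilobase of gene relative to library size, divided by a factor that aligns the libraries), listed for libraries 1, 2 and 3 of each group. Differences are log2 changes of scaled FPKM + 1, Model minus Sham, with their standard errors. Adjusted p-values come from limma with Benjamini-Hochberg adjustment over 13000 genes, and "rose" and "fell" are used for an adjusted p under 0.05. Of those genes, 38.9% passed, 20.9% as higher and 18% as lower in Model, and the median log2 change was 0.03. In 55.5% of genes the 3 Model libraries did not overlap the 3 Sham libraries (29.8% higher and 25.7% lower in Model). The counts below are read against those shares.

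Heart muscle is a tissue of cardiomyocytes, which contract, and of fibroblasts, endothelial cells, mural cells and resident macrophages, which build and patrol the tissue between them. Transcription factors set which genes a cell reads, secreted factors and receptors carry messages between the cells, and ion channels and calcium-handling proteins shape each beat. Many noncoding RNAs are transcribed beside or across such genes, and some are the precursors of microRNAs.

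The tissue label was checked against marker genes. The 10 ventricular cardiomyocyte markers summed to 19241 to 21127 scaled FPKM in the Sham libraries and 9602.9 to 11304 in the Model libraries, and 9 of them fell. Resident fibroblast markers summed to 1077.8 to 1251.8 in Sham and 3181.3 to 3545.4 in Model, with 9 of 10 higher, and activated fibroblast markers to 155.26 to 175.93 in Sham and 813.47 to 1166.5 in Model, with 9 of 10 higher. Acta2, the activated marker that was not called, made up 115 to 131 of that sum in Sham and 162 to 171 in Model. Macrophage markers summed to 402.49 to 608.45 in Sham and 816.4 to 1207.7 in Model, with 6 of 12 higher and 1 lower. Endothelial markers summed to 530.53 to 623.65 in Sham and 362.72 to 462.43 in Model, with 1 of 10 higher and 3 lower. The lower ones were the abundant Fabp4 and Ly6c1 and also Egfl7, while Pecam1, Cdh5, Kdr and Tek were not called. Of 8 mesothelial and epicardial markers 5 rose, with sums of 3.16 to 18.1 in Sham and 21.5 to 103.3 in Model. Adipocyte markers were called in no direction, but their sum of 44.1 in the highest Model library, replicate 2, stood apart from 0.957 in the lowest and from 3.10 to 5.28 in Sham. The fast skeletal muscle genes Mylpf and Tnnt3 were also highest in that library, at 7.75 and 3.76 against at most 1.32 and 0.814 in the other 5, and Mylpf, the one tested, was not called. Of 6 atrial cardiomyocyte markers 3 were tested and 1, Dkk3, rose. From the same list, Sln, Myl4 and Myl7 were at most 0.558, 1.17 and 1.45 in any library, and Bmp10 was at 0 in all 6 libraries. Cartilage and bone markers summed to 0.23559 to 1.2173 in Sham and 12.939 to 18.964 in Model, with 1 of 2 tested higher. That gene, Chad, stood at 0.18544, 0.1326 and 0.14001 in Sham and 15.432, 10.794 and 16.421 in Model. Chad made up most of the Model sums. From the same list, Acan and Col2a1 were too low to be tested. Acan was at most 0.0105 in Sham and stood at 0.646, 0.833 and 1.58 in Model. Col2a1 was at 0 in Sham and stood at 0.296, 0.167 and 0.298 in Model. Cnmd, the other gene tested, was not called, Phex was at most 0.0495 in any library, and Ibsp was at 0. Among the lung epithelium markers Sftpc, Sftpa1, Sftpd and Cldn18 were at 0. Among the sex-linked genes Xist was at most 0.0347 in the 6 libraries. The Y-linked Ddx3y stood at 18.9 to 30.5 in Sham and 18.0 to 21.3 in Model, as in male tissue. In bulk tissue, fewer cells of a type and less RNA per cell of that type cannot be told apart. The marker lists move with most of the gene groups below, and their part in those results was not tested.

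Counted by class, secreted factors and receptors held more members that rose than fell, and few noncoding genes rose. Of 181 secreted factors tested 90 rose and 15 fell, with a median log2 change of 0.57, against 20.9% and 18% over all genes. Of 231 receptors 103 rose and 30 fell (median 0.41). Transcription factors, 767 genes by the file's family annotation and the lists used here, held 190 that rose and 74 that fell (median 0.12), and 242 channels and transporters held 81 and 55 (median 0.04). Noncoding genes, 675 tested, held 52 that rose (7.704%) and 124 that fell (18.4%), with a median of -0.16; the share that fell is near that over all genes. Several counts were smaller when 1 library was left out, in fits that hold fewer samples. The lower transcription factors numbered 40 without Model replicate 1 and 47 without Model replicate 3, Sham replicate 1 or Sham replicate 2. Lower receptors numbered 17 without Model replicate 1 and 18 without Sham replicate 2, and lower channels and transporters 30, 34 and 36 without Model replicate 1, Model replicate 3 and Sham replicate 2. Lower noncoding genes numbered 80 without Model replicate 1 and 78 without Sham replicate 1. Higher transcription factors and noncoding genes numbered 121 and 28 without Model replicate 1.

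**Figure D1:**
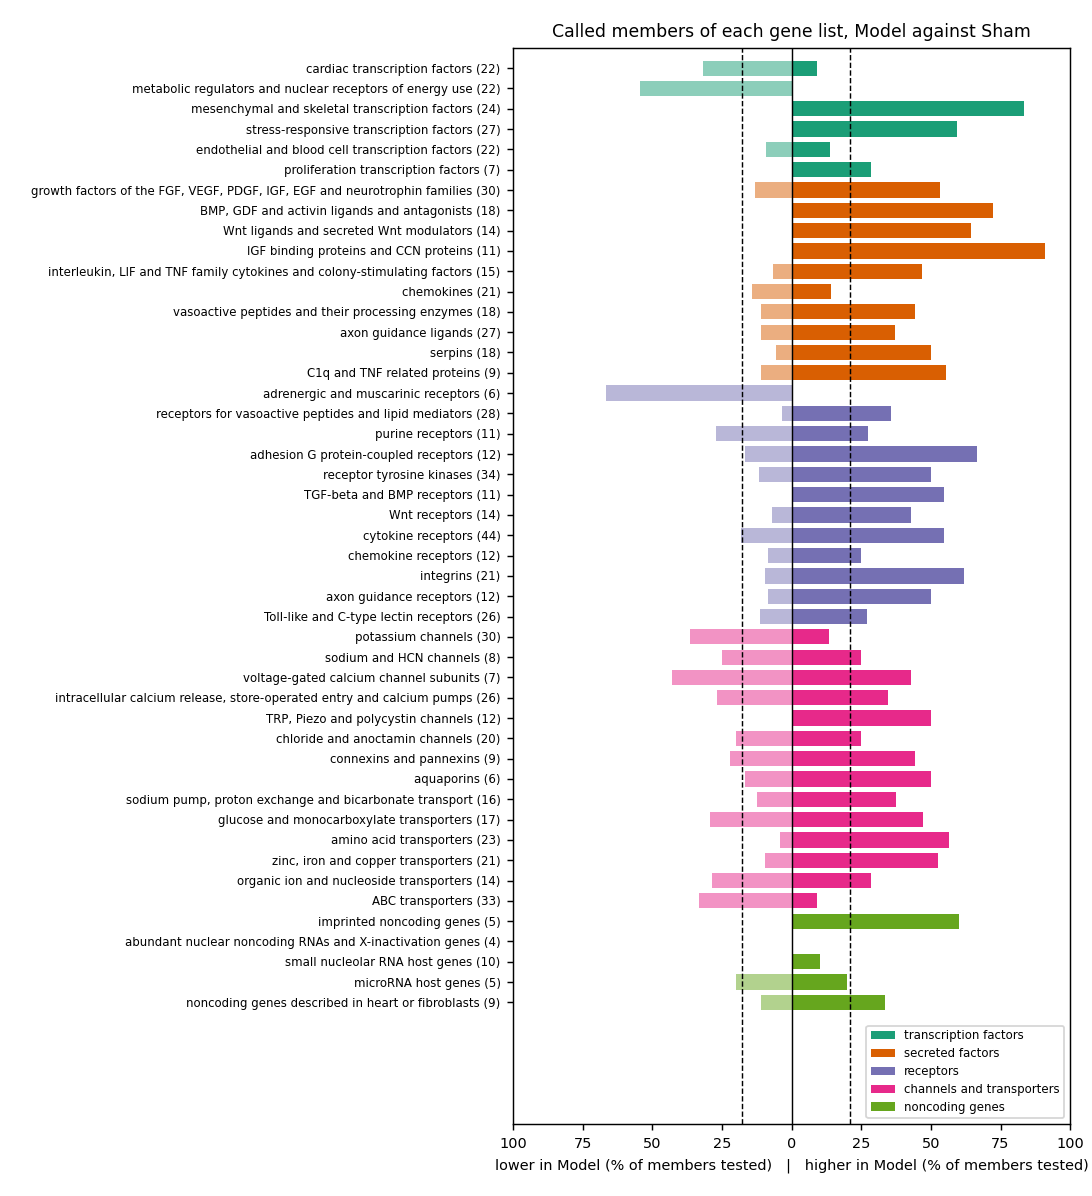
Share of the tested members of each gene list that were called higher (right, solid) or lower (left, pale) in Model, in percent, with the number tested in brackets and colour by class. Dashed lines mark the shares over all genes, 20.9% higher and 18% lower. Lists of mesenchymal transcription factors and of IGF binding and CCN proteins lie far to the right, and adrenergic and muscarinic receptors and metabolic regulators lie to the left.

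Transcription factors divided by the kind of cell they are known for. Of 24 mesenchymal and skeletal factors 20 rose and none fell (median log2 change 1.24), and of 27 stress-responsive factors 16 rose and none fell (median 0.48). Of 22 cardiac factors 2 rose and 7 fell (median -0.23), and of 22 metabolic regulators none rose and 12 fell (median -0.51). Endothelial and blood cell factors held 3 that rose and 2 that fell of 22.

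Meox1, a homeodomain factor of the early mesoderm, stood at 4.72, 7.699 and 8.55 in Sham and 57.6, 37.5 and 53.7 in Model (log2 change 2.67 ± 0.42, adjusted p = 0.0014). The lowest Model library was several times the highest Sham library. Prrx2, a paired-type homeodomain factor of mesenchyme, was near the detection limit in Sham, with 0.199, 0.189 and 0.1999 in Sham and 4.92, 4.33 and 4.72 in Model (log2 change 2.24 ± 0.30, adjusted p = 0.0007). Creb3l1, an endoplasmic reticulum-bound factor that drives secretory and collagen genes, stood at 1.91, 2.71 and 4.31 in Sham and 16.99, 16.2 and 13.9 in Model (log2 change 2.11 ± 0.29, adjusted p = 0.0009). All of these were separate between groups with no overlap. Scx (scleraxis), the factor of tendon and other dense connective tissue, stood at 2.02, 1.63 and 2.58 in Sham and 12.6, 6.97 and 10.3 in Model (log2 change 1.81 ± 0.33, adjusted p = 0.0027). Its neighbour Bop1 lies on the opposite strand over the same interval, and whether reads were counted by strand is not stated, so the share of each gene is uncertain. The same limit holds for other genes named in this report. Among them are Atf5 (opposite Nup62 and Il4i1), Angptl7 (Mtor), Igfbp7 (Polr2b), Pln (Cep85l), Pkd1 (Tsc2) and Slc2a12 (Tbpl1). Runx1, known from blood stem cells and bone, was low and even in Sham, at 0.466, 0.457 and 0.456, and reached 3.31, 2.599 and 2.95 in Model (log2 change 1.43 ± 0.23, adjusted p = 0.0017). Foxs1, a forkhead factor of pericytes, rose by 1.75 on the log2 scale and Heyl, a repressor in the Notch pathway, by 1.09, each with no overlap between groups.

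Among factors that answer stress, Atf3 stood at 3.83, 1.34 and 3.42 in Sham and 7.07, 13.5 and 9.98 in Model (log2 change 1.56 ± 0.34, adjusted p = 0.0061). Atf5 rose by 0.92, Myc by 0.92, Trp53, which encodes p53, by 0.77, and the S-phase factor E2f1 by 0.76, in each case without overlap. The immediate early factors Egr2 and Nr4a3 rose as well. Egr2 went from 0.256 ± 0.0583 in Sham to 5.14 ± 1.303 in Model and Nr4a3 from 0.582 ± 0.0403 in Sham to 5.13 ± 0.903 in Model (SD, n = 3 per group). Klf4, found in endothelium, smooth muscle and macrophages, rose by 1.204. By the file's families, bZIP factors held 22 that rose and 4 that fell of 37, the Rel homology family 8 and none of 10, and the forkhead family 9 and 1 of 16.

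Of the 22 cardiac factors 2 rose, and the highest log2 change on that list was 0.56. The largest fall among cardiac factors was that of Hopx, a small homeodomain protein that acts on serum response factor in cardiomyocytes. Its level was 129, 103 and 69.4 in Sham and 19.9, 43.1 and 18.97 in Model (log2 change -1.899 ± 0.45, adjusted p = 0.0089), and an antisense gene, Hopxos, overlaps it. Tbx5, which patterns the chambers and the conduction system, was tight in Sham, with 3.96, 4.08 and 4.21 in Sham and 1.29, 2.05 and 1.69 in Model (log2 change -0.94 ± 0.23, adjusted p = 0.010). Irx4, a factor of ventricular identity, fell by 0.800 on the log2 scale and Mef2c fell by 0.43. Nkx2-5 did not pass, with 34.6, 42.5 and 51.6 in Sham and 32.7, 33.6 and 27.4 in Model (log2 change -0.43 ± 0.22, adjusted p = 0.14), although the groups did not overlap.

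Regulators of energy use were lower as a list. Klf15, which links glucocorticoids to amino acid and lipid use, stood at 28.02, 24.1 and 20.6 in Sham and 6.41, 11.3 and 12.1 in Model (log2 change -1.24 ± 0.27, adjusted p = 0.0060). Nr3c2, the mineralocorticoid receptor, stood at 4.64, 6.04 and 6.29 in Sham and 1.63, 2.63 and 1.95 in Model (log2 change -1.12 ± 0.19, adjusted p = 0.0019). Both were separate between groups. Tfb2m, needed for transcription of the mitochondrial genome, fell by 0.65 and Pparg, a lipid-sensing nuclear receptor, fell by 0.64. Ppara, the main lipid sensor of cardiomyocytes, did not pass (log2 change -0.66 ± 0.29, adjusted p = 0.089). The clock output factors Hlf and Tef fell by 2.11 and 1.95. Mitf and Gata2 fell by 0.93 and 0.57 among the endothelial and blood cell factors. In the family of estrogen-related and steroid receptors 1 of 6 rose and 4 fell.

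**Figure D2:**
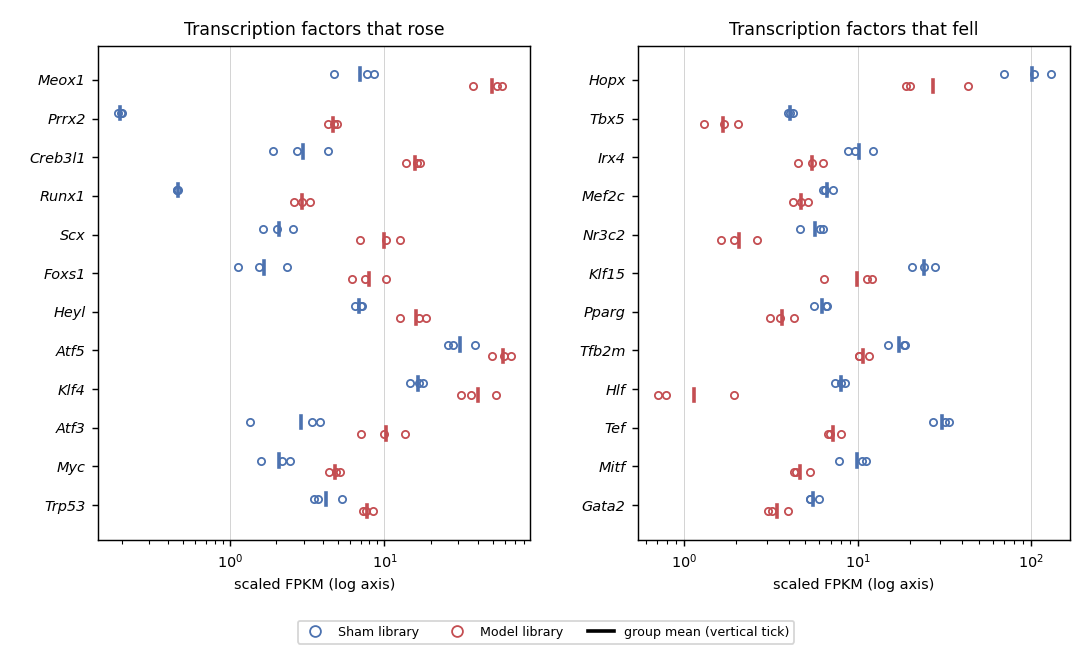
Scaled FPKM (log axis) of 12 transcription factors that rose (left) and 12 that fell (right), with open circles for the 3 Sham (blue) and 3 Model (red) libraries and ticks for group means. Circles of the groups do not overlap for any gene shown, and the gap is widest for Prrx2 and Runx1 on the left and for Hlf on the right.

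Promoter sequence is shown for 4 genes whose own change is reported here and whose promoter holds a motif bound by a family that also changed. The windows run from 250 bases before to 50 after the start, from RefSeq on GRCm38.p6, read 5′ to 3′ on the gene's strand, and motifs were sought on both strands. Capitals mark the motif. They are the Egr site GCGGGGGCG in Tgfbr1 (chr4:47352972-47353271, plus strand), a receptor that rose, the Runx site TGTGGTT in Runx1 itself (chr16:92826025-92826324, minus strand), the interferon-stimulated response element (ISRE) in Stat2 (chr10:128270248-128270547, plus strand) and the E-box CACGTG in Klf15 (chr6:90462326-90462625, plus strand).
Tgfbr1: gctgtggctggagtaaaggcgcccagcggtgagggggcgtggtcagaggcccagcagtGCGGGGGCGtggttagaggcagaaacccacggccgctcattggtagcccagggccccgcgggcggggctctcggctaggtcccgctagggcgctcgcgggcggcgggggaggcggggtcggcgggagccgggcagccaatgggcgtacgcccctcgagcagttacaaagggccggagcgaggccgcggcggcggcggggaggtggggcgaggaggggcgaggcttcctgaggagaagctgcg
Runx1: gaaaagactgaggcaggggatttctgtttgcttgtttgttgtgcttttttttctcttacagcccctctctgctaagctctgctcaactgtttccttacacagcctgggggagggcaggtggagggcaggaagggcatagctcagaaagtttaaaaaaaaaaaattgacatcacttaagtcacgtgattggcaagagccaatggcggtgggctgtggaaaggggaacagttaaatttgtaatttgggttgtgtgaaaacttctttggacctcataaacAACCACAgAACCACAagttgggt
Stat2: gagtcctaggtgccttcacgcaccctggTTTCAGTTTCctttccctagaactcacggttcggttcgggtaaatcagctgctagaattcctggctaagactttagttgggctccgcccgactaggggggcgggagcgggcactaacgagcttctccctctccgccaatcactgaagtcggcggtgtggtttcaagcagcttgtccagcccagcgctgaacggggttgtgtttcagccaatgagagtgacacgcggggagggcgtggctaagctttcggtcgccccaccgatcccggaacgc
Klf15: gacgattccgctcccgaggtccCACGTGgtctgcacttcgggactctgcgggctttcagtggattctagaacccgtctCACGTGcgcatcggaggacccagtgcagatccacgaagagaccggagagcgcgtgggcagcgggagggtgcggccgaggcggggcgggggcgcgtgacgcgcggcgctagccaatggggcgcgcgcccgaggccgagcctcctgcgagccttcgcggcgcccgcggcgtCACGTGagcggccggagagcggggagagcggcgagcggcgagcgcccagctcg
The Egr site is present in 2.92% of the 27025 promoters of the table, the Runx site in 5.37%, the interferon-response element in 3.49% and the E-box in 7.24%. Among the 9318 tested genes with a promoter there the shares were 5.75%, 3.33%, 3.17% and 10.27%. The motifs also occur outside the pairs shown, left in lower case: the Klf15 window held 1 Egr site, the Runx1 window 1 E-box and the Stat2 window 1 Runx site. The Tgfbr1 window held 1 match, starting at -192 from the start site, and the Stat2 window 1 match at -222. The Runx1 window held 2 adjacent matches on the other strand, the first at 27 bases after the start, and the Klf15 window 3 matches, the first at -228. Beside these, Egr1, whose protein binds the Egr site, stood at 11.1, 5.48 and 3.32 in Sham and 24.9, 41.4 and 23.3 in Model (log2 change 2.099 ± 0.33, adjusted p = 0.0016). Arntl, whose protein binds E-boxes in the clock, rose by 2.16, and Stat2, which binds interferon-response elements, fell by 1.96. A match of letters describes the window and is no evidence of binding.

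Secreted factors that act on matrix, growth and Wnt signals rose in most of their members. IGF binding and CCN proteins rose in 10 of 11 members (median log2 change 1.67), BMP, GDF and activin ligands and antagonists in 13 of 18 (median 1.02), and Wnt ligands and secreted Wnt modulators in 9 of 14 (median 1.38), with none lower in these lists. Of 30 growth factors 16 rose and 4 fell (median 0.57). Of 21 chemokines 3 rose and 3 fell (14.3% each), below the shares of 20.9% and 18% over all genes.

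Angptl7, an angiopoietin-like protein of connective tissue, had the values 7.11, 3.61 and 1.67 in Sham and 116, 86.6 and 124 in Model (log2 change 4.55 ± 0.91, adjusted p = 0.0042). Dkk3, a Dickkopf family protein, had 3.36, 1.97 and 1.59 in Sham and 71.3, 51.8 and 69.2 in Model (log2 change 4.32 ± 0.63, adjusted p = 0.0010). Wisp2 (CCN5), a matricellular protein, had 3.76, 4.3998 and 4.28 in Sham and 141, 62.9 and 91.97 in Model (log2 change 4.201 ± 0.61, adjusted p = 0.0011). In each of these genes every Model library was more than 10 times the highest Sham library. The heparin-binding growth factors Ptn and Mdk, which are relatives, rose by 3.35 and 3.01 on the log2 scale, and the Wnt antagonist Sfrp1 by 3.18. The matricellular protein Ctgf (CCN2) stood at 41.2, 40.9 and 31.2 in Sham and 320.4, 194 and 372 in Model (log2 change 2.89 ± 0.69, adjusted p = 0.0086).

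Igf1, the growth factor of the insulin-like family, and several of its binding proteins rose. Its level was 1.98, 2.31 and 3.0003 in Sham and 9.42, 20.8 and 9.95 in Model (log2 change 1.99 ± 0.26, adjusted p = 0.00072), with Model replicate 2 well above the other two. The binding proteins Igfbp4, Igfbp6 and Igfbp7 rose by 1.89, 2.01 and 1.96, and Igfbp7 was abundant, at 254 ± 41.4 in Sham to 992 ± 163 in Model (SD, n = 3). Vegfd, a ligand of lymphatic and vascular receptors, had 0.9703, 0.432 and 1.04 in Sham and 8.35, 10.3 and 6.81 in Model (log2 change 2.39 ± 0.36, adjusted p = 0.0012). Vegfa did not pass, with 36.8, 36.3 and 34.97 in Sham and 43.4, 48.3 and 45.3 in Model (log2 change 0.33 ± 0.13, adjusted p = 0.057), although its libraries did not overlap. In the BMP group, Fstl1 went from 51.3 ± 8.78 in Sham to 329 ± 23.9 in Model, and Bmp1, the protease that trims procollagens, from 6.03 ± 1.199 in Sham to 26.9 ± 0.516 in Model (SD, n = 3). Fst, which binds activins, was close to the detection limit in Sham, at 0.0339, 0.146 and 0.205, and reached 3.32, 2.38 and 3.02 in Model. Wnt9a rose by 0.98, and Fgf9, a growth factor for neighbouring cells, fell by 0.799.

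The called cytokine and chemokine genes lay in both directions, and chemokines were called less often than all genes. Spp1 (osteopontin), a cytokine and integrin ligand, stood at 0.614, 0.541 and 0.904 in Sham and 10.7, 25.7 and 15.7 in Model (log2 change 3.37 ± 0.63, adjusted p = 0.0033). Il33, an alarmin, rose by 1.67 and the membrane-bound chemokine Cx3cl1 by 1.77. Ccl12, a monocyte chemokine, had 14.5, 19.2 and 26.1 in Sham and 4.55, 6.73 and 2.29 in Model (log2 change -1.97 ± 0.40, adjusted p = 0.0046), Ccl11 fell by 1.17, and Tnfsf10 (TRAIL) fell by 1.92. Each of these 6 genes had no overlap between groups.

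Of 18 vasoactive peptides and processing enzymes 8 rose and 2 fell (median 0.27). Corin, the cardiomyocyte protease that activates natriuretic peptide, was even within groups, with 32.6, 35.4 and 34.4 in Sham and 10.4, 14.4 and 12.03 in Model (log2 change -1.41 ± 0.19, adjusted p = 0.00088). Edn1 (endothelin-1), a vasoconstrictor, stood at 1.64, 2.33 and 1.76 in Sham and 5.52, 6.35 and 6.63 in Model (log2 change 1.31 ± 0.22, adjusted p = 0.0020), and its relative Edn3 fell by 0.87. Ptgis, the enzyme that makes prostacyclin, stood at 11.9, 11.8 and 11.1 in Sham and 67.8, 64.3 and 62.7 in Model (log2 change 2.38 ± 0.28, adjusted p = 0.00036). The endothelin genes thus moved in opposite directions, and the Ptgis groups were each within a narrow range. Ace, which makes angiotensin II, rose by 1.07. Among 27 axon guidance ligands 10 rose and 3 fell. Slit3, a Robo ligand, stood at 2.696, 4.65 and 4.38 in Sham and 14.8, 29.7 and 11.7 in Model (log2 change 1.92 ± 0.32, adjusted p = 0.0019), the semaphorins Sema3c and Sema3f rose by 1.101 and 0.996, and Sema4d fell by 0.605. Serpinf1 (pigment epithelium-derived factor) rose by 2.57 among 18 serpins, of which 9 rose and 1 fell, and C1qtnf4 fell by 0.83 in a family of 9 in which 5 rose.

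**Figure D3:**
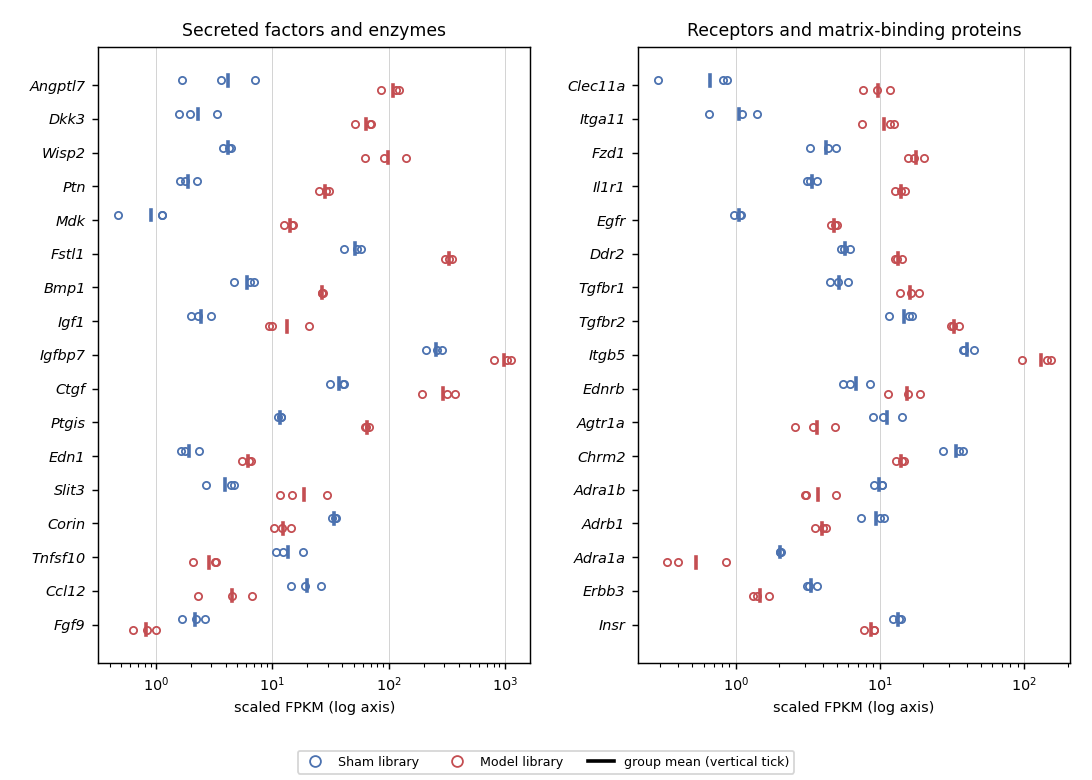
Scaled FPKM (log axis) of 17 secreted factors and enzymes (left) and 17 receptors and matrix-binding proteins (right), with open circles for the 3 Sham (blue) and 3 Model (red) libraries and ticks for group means. Model circles lie to the right for Angptl7 to Slit3 and for Clec11a to Ednrb, and to the left for Corin to Fgf9 and for Agtr1a to Insr.

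Adrenergic and muscarinic receptors fell in most members tested, and many receptors for matrix, growth factors and cytokines rose. Of 6 adrenergic and muscarinic receptors tested none rose and 4 fell (median log2 change -1.03). Receptors for vasoactive peptides and lipid mediators rose in 10 of 28 with 1 lower (median 0.19). Integrins rose in 13 of 21 with 2 lower (median 0.62), cytokine receptors in 24 of 44 with 8 lower (median 0.59), receptor tyrosine kinases in 17 of 34 with 4 lower (median 0.39) and TGF-beta and BMP receptors in 6 of 11 with none lower (median 0.28). Adhesion G protein-coupled receptors rose in 8 of 12 with 2 lower (median 0.58).

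Chrm2, the muscarinic receptor through which the vagus slows the heart, stood at 35.02, 37.7 and 27.3 in Sham and 12.9, 14.2 and 14.6 in Model (log2 change -1.19 ± 0.18, adjusted p = 0.0014). Adrb1, the main beta receptor of cardiomyocytes, stood at 7.41, 10.6 and 10.01 in Sham and 3.55, 4.19 and 4.04 in Model (log2 change -1.06 ± 0.21, adjusted p = 0.0040). The alpha receptor Adra1a was close to constant in Sham, with 2.03, 2.01 and 2.06 in Sham and 0.333, 0.859 and 0.396 in Model (log2 change -1.003 ± 0.21, adjusted p = 0.0048). None of these overlapped. Adra1b fell by 1.24 (adjusted p = 0.016), but its adjusted p was 0.058 without Model replicate 1 and 0.053 without Model replicate 3. Agtr1a, the type 1 angiotensin II receptor, had 14.2, 10.4 and 8.98 in Sham and 2.59, 4.88 and 3.43 in Model (log2 change -1.41 ± 0.28, adjusted p = 0.0045), the opposite direction to Ace. The neuregulin receptor Erbb3 fell by 0.81, the insulin receptor Insr by 0.57, the growth hormone receptor Ghr by 0.51 and the leukemia inhibitory factor receptor Lifr by 0.57.

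Tgfbr1, which signals for TGF-beta, stood at 5.09, 5.99 and 4.4997 in Sham and 16.4, 13.7 and 18.5 in Model (log2 change 1.47 ± 0.26, adjusted p = 0.0026), and its partner Tgfbr2 at 11.5, 16.6 and 15.9 in Sham and 34.996, 32.2 and 30.9 in Model (log2 change 1.12 ± 0.22, adjusted p = 0.0040). Both subunits of the receptor were higher in every Model library, and the endothelial type I receptor Acvrl1 rose by 0.89. Among the receptor tyrosine kinases, Egfr had 0.976, 1.07 and 1.09 in Sham and 4.56, 5.03 and 4.87 in Model (log2 change 1.51 ± 0.18, adjusted p = 0.00045) and the collagen receptor Ddr2 rose by 1.09, while the VEGF receptor Kdr did not pass (log2 change -0.46 ± 0.22, adjusted p = 0.12). The Wnt receptors Fzd1, Fzd2 and Fzd7 rose by 1.86, 1.600 and 1.06. Il1r1, the interleukin-1 receptor, stood at 3.65, 3.104 and 3.29 in Sham and 15.01, 14.04 and 12.7 in Model (log2 change 1.78 ± 0.23, adjusted p = 0.0007), and Il4ra rose by 1.13.

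Among genes that bind matrix or soluble ligands, Itga11, the collagen-binding alpha 11 chain, stood at 0.653, 1.0999 and 1.41 in Sham and 11.7, 7.46 and 12.5 in Model (log2 change 2.48 ± 0.50, adjusted p = 0.0045). The chains Itgav, Itgb3 and Itgb5, which pair to bind osteopontin and vitronectin, rose by 1.22, 1.42 and 1.66. Tnfrsf11b (osteoprotegerin), a secreted decoy receptor, was at 0, 0.0264 and 0.0556 in Sham and 4.19, 6.25 and 3.91 in Model (log2 change 2.47 ± 0.28, adjusted p = 0.00034). Clec11a, a secreted lectin with growth factor activity, stood at 0.288, 0.873 and 0.816 in Sham and 11.7, 7.66 and 9.48 in Model (log2 change 2.68 ± 0.49, adjusted p = 0.0029). Both were near the detection limit in Sham and well above it in every Model library. The endothelin receptor Ednrb rose by 1.07, the UDP receptor P2ry6 by 1.26, the adhesion receptor Adgra2 by 1.27 and the semaphorin receptor Plxna4 by 0.99. Ccrl2, a chemerin-binding receptor, fell by 1.14.

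Channels and transporters differed by list. Potassium channels held 4 that rose and 11 that fell of 30 (median log2 change -0.53). TRP, Piezo and polycystin channels rose in 6 of 12 with none lower (median 0.38), and amino acid transporters in 13 of 23 with 1 lower (median 0.54). ABC transporters held 3 higher and 11 lower of 33 (median -0.17). Voltage-gated calcium channel subunits, with 3 higher and 3 lower of 7, moved both ways.

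Kcnh2, which carries the rapid delayed rectifier current that ends the action potential, was nearly constant within groups, at 20.4, 21.7 and 21.02 in Sham and 6.98, 7.72 and 7.08 in Model (log2 change -1.42 ± 0.26, adjusted p = 0.0032). An antisense gene, Gm15589, overlaps it. Kcnj3 and Kcnj5, the subunits of the channel that the muscarinic receptor opens, stood at 6.85, 7.83 and 5.31 in Sham and 1.49, 2.27 and 1.07 in Model and at 18.2, 19.6 and 16.1 in Sham and 4.81, 7.56 and 6.48 in Model (log2 change -1.57 ± 0.38, adjusted p = 0.0095, and log2 change -1.395 ± 0.24, adjusted p = 0.0022). The receptor Chrm2 and both channel subunits were lower in all Model libraries than in any Sham library. Kcnj2, the inward rectifier that holds the resting potential, had 9.9, 8.77 and 7.91 in Sham and 3.45, 4.27 and 3.3998 in Model (log2 change -1.07 ± 0.25, adjusted p = 0.0086). For the transient outward current, Kcnd2 had 6.5004, 9.93 and 6.06 in Sham and 2.83, 3.95 and 2.57 in Model (log2 change -1.03 ± 0.26, adjusted p = 0.012), and its accessory subunit Kcnip2 had 55.8, 60.05 and 53.8 in Sham and 26.2, 28.2 and 26.8 in Model (log2 change -1.03 ± 0.29, adjusted p = 0.018). Kcnip2 lost its call without Model replicate 1 (adjusted p = 0.054) and without Sham replicate 2 (adjusted p = 0.052). The silent subunit Kcnv2 fell by 1.402 and the calcium-activated channel Kcnn2 by 0.82. Kcne4, an accessory subunit, went the other way, with 2.46, 1.79 and 3.01 in Sham and 13.98, 12.3 and 10.8 in Model (log2 change 1.98 ± 0.37, adjusted p = 0.0031), and Kcnj15 rose by 1.895.

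Of 26 genes of calcium release, store-operated entry and calcium pumps 9 rose and 7 fell (median 0.08). Several genes of the beat-to-beat calcium cycle, not all of them, were among those that fell. The subunits Cacna1c, Cacnb2, Cacna2d1 and Cacnb3 were counted with the voltage-gated calcium channels above. Cacna1c, the pore of the L-type calcium channel, stood at 13.8, 15.9 and 17.8 in Sham and 8.01, 8.06 and 8.57 in Model (log2 change -0.86 ± 0.21, adjusted p = 0.0095). Its partners Cacnb2 and Cacna2d1 fell by 0.92 and 0.66, while Cacnb3, a beta subunit of other tissues, rose by 1.49. Ryr2, the release channel of the sarcoplasmic reticulum, had 63.7, 83.3 and 76.002 in Sham and 31.5, 35.6 and 31.4 in Model (log2 change -1.15 ± 0.30, adjusted p = 0.012). Pln, the inhibitor of the calcium pump, had 784, 573 and 506 in Sham and 193, 278 and 272 in Model (log2 change -1.32 ± 0.30, adjusted p = 0.0074). Triadin (Trdn) and junctophilin 1 (Jph1), which hold the release machinery in place, fell by 1.02 and 1.11. Atp2a2, the pump itself, fell by 1.32 (adjusted p = 0.015), but quantile normalization moved the fall to 0.58 with an adjusted p of 0.12, and the adjusted p was 0.084 with no filter and 0.054 without Model replicate 1. From the same list, the store-operated entry channel gene Orai2 rose by 1.34 and its sensor Stim1 by 0.63.

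Hcn4, the pacemaker channel, stood at 2.65, 2.21 and 2.43 in Sham and 0.38005, 0.908 and 0.191 in Model (log2 change -1.23 ± 0.35, adjusted p = 0.019). It lost its call without Model replicate 1, Model replicate 3 or Sham replicate 1, with adjusted p of 0.058 to 0.066. Scn7a, a sodium channel of glia and mesenchyme, rose by 0.81. The gap junction gene Gja1 (connexin 43) did not pass (log2 change -0.16 ± 0.11, adjusted p = 0.27). Panx1, a membrane channel that releases ATP, had 0.568, 0.702 and 0.637 in Sham and 3.88, 2.99 and 4.59 in Model (log2 change 1.55 ± 0.28, adjusted p = 0.0026). The polycystins Pkd1 and Pkd2 rose by 1.64 and 1.39, and the mechanically gated channels Piezo1 and Piezo2 by 0.91 and 1.32.

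Of 17 glucose and monocarboxylate carriers 8 rose and 5 fell (median 0.11). Slc2a4 (GLUT4), the insulin-regulated glucose carrier of muscle, was tight in both groups, with 114, 108 and 108 in Sham and 48.3, 49.96 and 49.8 in Model (log2 change -1.14 ± 0.31, adjusted p = 0.016), and Slc2a12 fell by 1.198. Slc16a3 (MCT4), which exports lactate, had 0.908, 0.684 and 0.914 in Sham and 5.39, 5.74 and 5.79 in Model (log2 change 1.86 ± 0.25, adjusted p = 0.00077), and Slc2a10 rose by 1.25. The glutamine and neutral amino acid carriers Slc1a5 and Slc38a2 rose by 1.28 and 0.75. The sodium pump regulators Fxyd5 and Fxyd6 rose by 1.64 and 1.805, and the chloride-bicarbonate exchanger Slc4a3 fell by 1.07. Of the ABC transporters, the mitochondrial Abcb8 fell by 0.92 and the drug pump of vessel walls Abcb1a by 0.84.

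**Figure D4:**
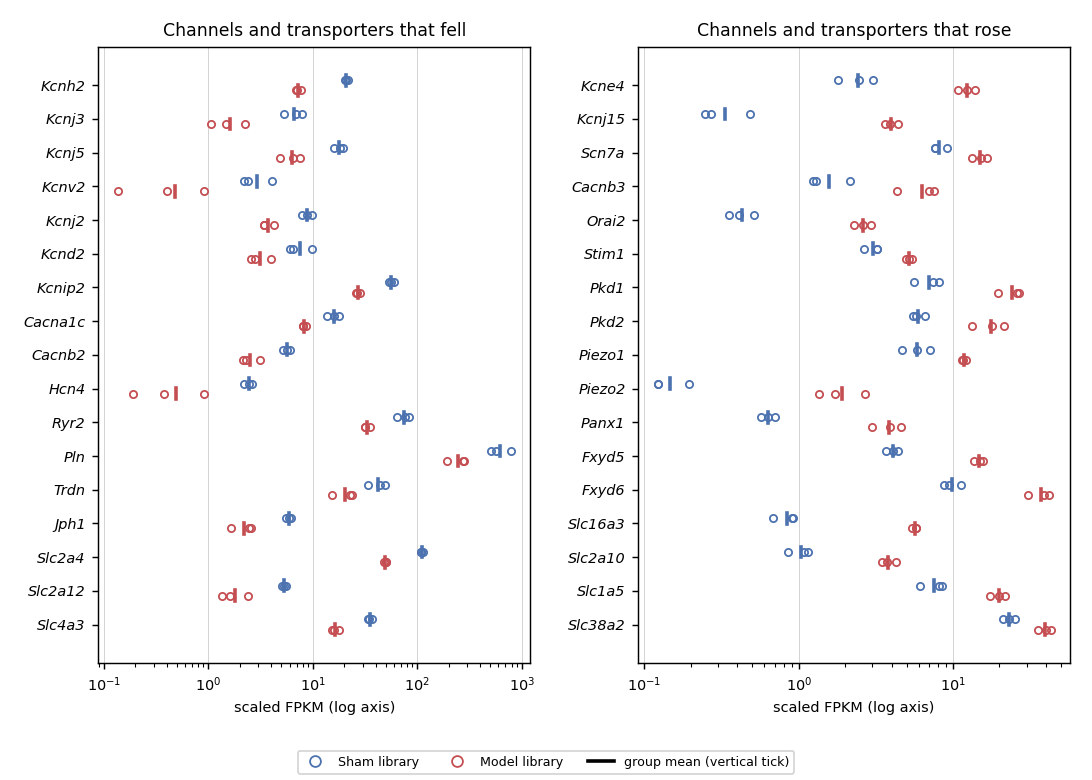
Scaled FPKM (log axis) of 17 channels and transporters that fell (left) and 17 that rose (right), with open circles for the 3 Sham (blue) and 3 Model (red) libraries and ticks for group means. Groups do not overlap for any gene shown, and the libraries of a group lie close together for Kcnh2 and Slc2a4.

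Noncoding genes fell about as often as all genes, 18.4% against 18%, and rose less, 7.704% against 20.9%. Long intergenic RNAs held 14 that rose and 56 that fell of 178 (median log2 change -0.25), and antisense RNAs 8 and 36 of 144 (median -0.27). Processed transcripts were even, at 14 and 14 of 78. Small nucleolar RNAs held 4 and none of 65, and microRNA genes 5 and 1 of 77. Small RNAs are poorly caught by the poly-T beads of these libraries, so reads in a microRNA gene cannot be read as a level of the mature microRNA. Antisense genes share their interval with another gene, and strand use in counting is not stated, so their reads cannot be told apart from those of the partner.

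Dnm3os, a long RNA transcribed across the Dnm3 gene (chromosome 1, 162217623 to 162225550, on the build of the deposited table, which the submitters' notes name as mm10), stood at 0.491, 0.468 and 0.445 in Sham and 3.64, 3.24 and 4.53 in Model (log2 change 1.702 ± 0.36, adjusted p = 0.0056). Dnm3 itself was too low to be tested. The imprinted genes H19, Meg3 and Rian were higher in every Model library. H19 (chromosome 7, 142575529 to 142578143) had 7.06, 3.35 and 4.05 in Sham and 13.7, 20.5 and 11.02 in Model (log2 change 1.47 ± 0.42, adjusted p = 0.019), and lost its call without Model replicate 2, Sham replicate 2 or Sham replicate 3 (adjusted p of 0.051 to 0.065). Meg3 and Rian, from a single imprinted cluster, rose by 0.903 and 1.01. Gm15867 rose by 2.404, but it lies opposite Sertad4, which rose by 2.47.

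Mhrt, an antisense RNA of the myosin locus (chromosome 14, 54968678 to 54974349), stood at 9.43, 9.73 and 7.298 in Sham and 3.02, 3.53 and 3.47 in Model (log2 change -1.17 ± 0.23, adjusted p = 0.0037). Its partner Myh7 did not pass (log2 change -0.29, adjusted p = 0.299). Gm5532 had 57.3, 65.9 and 52.7 in Sham and 16.9, 19.96 and 21.8 in Model (log2 change -1.54 ± 0.25, adjusted p = 0.0018), and Gm36827 fell by 1.49, 2310040G24Rik by 1.87 and Gm31013 by 1.86. AW112010, an interferon-inducible transcript, fell by 1.55. Neat1, a scaffold of nuclear bodies, did not pass (log2 change -0.46 ± 0.18, adjusted p = 0.060; 0.015 without Sham replicate 3). None of the 4 abundant nuclear noncoding RNAs and X-inactivation genes tested was called.

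**Figure D5:**
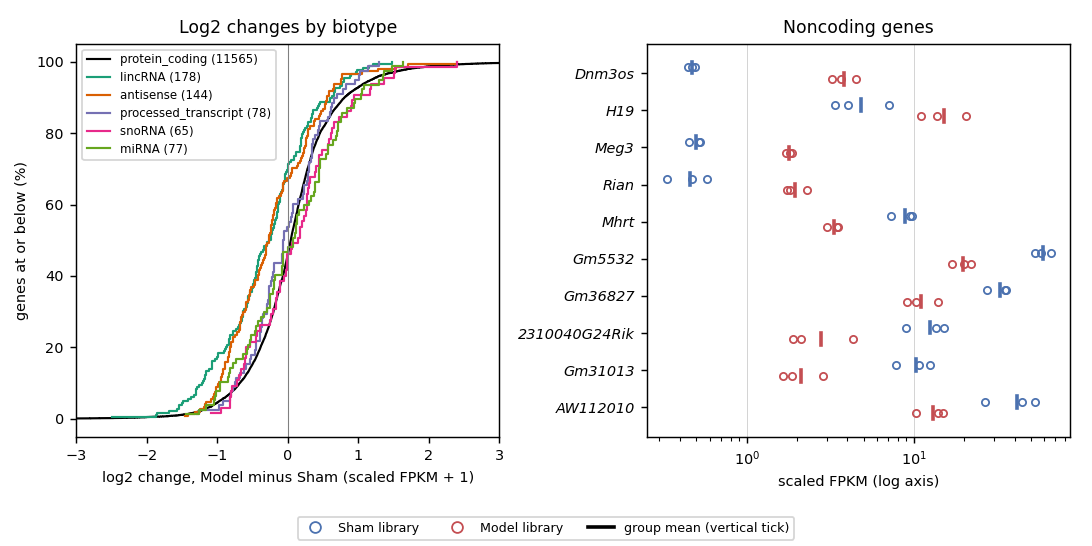
Left, cumulative share of genes (percent) against the log2 change of scaled FPKM + 1, Model minus Sham, for 6 biotypes with the number of genes in brackets; right, scaled FPKM (log axis) of 10 noncoding genes, with open circles for the 3 Sham (blue) and 3 Model (red) libraries and ticks for group means. The curves of long intergenic (lincRNA) and antisense genes lie left of protein-coding genes, with medians of -0.25 and -0.27 against 0.04.

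Several genes described here carry microRNA hairpins on their own strand, and their mature sequences are shown because they name the precursors that the host transcripts contain. By RefSeq positions on GRCm38.p6, 436 tested genes held a hairpin, of which 128 rose and 55 fell. Over all genes tested 20.9% rose and 18% fell. The hosts below were chosen after their values were seen, and Myh7, which did not pass, is shown beside the other myosin genes. Capitals mark the seed, bases 2 to 8.
mmu-miR-199a-5p (in Dnm3os): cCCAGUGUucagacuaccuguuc
mmu-miR-199a-3p (in Dnm3os): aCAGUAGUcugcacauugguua
mmu-miR-214-3p (in Dnm3os): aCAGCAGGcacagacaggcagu
mmu-miR-675-5p (in H19): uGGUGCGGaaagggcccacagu
mmu-miR-218-5p (in Slit3): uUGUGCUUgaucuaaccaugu
mmu-miR-490-3p (in Chrm2): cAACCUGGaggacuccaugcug
mmu-miR-208a-3p (in Myh6): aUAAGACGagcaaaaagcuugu
mmu-miR-208b-3p (in Myh7): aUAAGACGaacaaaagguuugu
mmu-miR-499-5p (in Myh7b): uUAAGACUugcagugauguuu
Hosts that rose were Dnm3os, with miR-199a and miR-214, H19, with miR-675, and Slit3. Slit2, which rose by 1.00 on the log2 scale (adjusted p = 0.00233), holds a second hairpin for the same miR-218-5p, so both Slit hosts of this seed were higher. Among hosts that fell were Chrm2, with miR-490, and the myosin genes Myh7b (log2 change -0.99, adjusted p = 0.00979) and Myh6 (log2 change -1.23, adjusted p = 0.0143). The Myh6 change shrank to -0.25 under quantile normalization (adjusted p = 0.439), and with no filter the adjusted p was 0.209. miR-208a-3p and miR-208b-3p, from Myh6 and Myh7, share the seed UAAGACG, and miR-499-5p from Myh7b has UAAGACU.

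Genes named above can be set side by side for several signals, each with its own values and without covering every member of the signal. In the endothelin system Edn1 and Ednrb rose and the ligand Edn3 fell. For TGF-beta signalling both receptor chains rose, and for angiotensin the enzyme Ace rose and the receptor Agtr1a fell. For osteopontin the ligand Spp1 and the integrin chains Itgav, Itgb3 and Itgb5 rose. For acetylcholine the receptor Chrm2 and the channel subunits Kcnj3 and Kcnj5 fell.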

How the data were processed

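The authors deposited FPKM for 54532 mouse genes with gene lengths, biotypes and factor families; per the submitters' processing notes fastp, HISAT2 2.0.5 and featureCounts 1.5.0-p3 were used on mm10. RNA was captured with poly-T beads, per the labels' protocols, and the strand setting in counting is not given in the sources used here. Products of FPKM and gene length were whole multiples of a step for 100.0% of values (tolerance 0.02 read), which gave the read totals. Each library's FPKM were scaled by the median ratio over the 10422 genes that reached 1 FPKM in all 12 mouse libraries. The 13000 genes reaching 1 FPKM in 3 or more libraries were fitted as log2(scaled FPKM + 1), which understates the change of low genes, with limma 3.58.1 in R 4.3.3 (trend, two-sided, threshold 0.05). All 4 groups of 3 entered the fit, the 2 compound groups only to share the estimate of spread. The script was tested on simulated data.

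The gene lists and the comparison were chosen with earlier results of these data known. The rule for naming genes took, per class and direction, the 10 largest called changes with 2 scaled FPKM or more and no overlap, up to 4 called members per list and direction, up to 2 uncalled, and a fixed panel; not every eligible gene is printed. Myh6, Myh7, Myh7b, Slit2, Sertad4 and the genes named in the closing observations stand outside that rule, and the printed promoters were picked after their matches were seen. Promoters were found for 590 of 844 genes that rose and 424 of 610 that fell at least 2-fold, too few to compare motif shares, so such shares are void and not given. Other settings tried were unscaled FPKM, a replicate block, limma-voom on the recovered reads, a fit of the 6 libraries alone, a pseudocount of 0.1, quantile normalization, a mean level of 5 FPKM or more, no filter, and each library left out. The rat libraries were not used here.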

Additional observations from a re-analysis of the deposited data

How the results depend on the processing

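Of 151 called genes named here 144 kept their direction and their call under each alternative in which they were tested (103 of the 151 at a mean of at least 5 FPKM), 7 lost the call under at least 1 (Adra1b, Hcn4, Kcnip2, Atp2a2, H19, Myh6 and Igkc), and none changed sign. Of 12 uncalled genes named, 5 passed under at least 1 alternative. Ppara, Kdr, Vegfa and Jchain passed with only the 6 Sham and Model libraries in the fit (adjusted p = 0.030, 0.028, 0.023 and 0.022). Of the uncalled genes 3 changed sign: Cd79a from 0.11 to -0.14 under quantile normalization, Ighm, which ranged from -0.55 to 0.28 with a library left out (0.28 without Model replicate 3, 0.03 without Sham replicate 3), and Mylpf, which ranged from -0.38 without Model replicate 2 to 1.04. Over all genes, 5053 were called, between 4346 and 5161 under the changes of scaling, pseudocount and test and without a filter, and 5412 with only the 6 libraries in the fit. With a mean of at least 5 FPKM fewer genes were tested, and 3291 were called (1546 higher). By class that filter left 97 higher and 40 lower transcription factors, 9 lower secreted factors, 56 higher and 16 lower receptors, 34 higher channels and transporters, and 9 higher and 28 lower noncoding genes. With no filter 106 noncoding genes were higher.

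Leaving out each library in turn gave 3288 to 4498 called genes (1406 to 2077 lower). The ranges were 121 to 177 higher and 40 to 61 lower transcription factors, 17 to 26 lower receptors, 30 to 47 lower channels and transporters, and 28 to 44 higher and 78 to 120 lower noncoding genes. Fewer samples enter these fits. Replicate numbers gave no sign of pairing, though 3 libraries per group are too few to settle it. Deviations of same-numbered libraries correlated at -0.173, -0.103 and -0.061 across genes, and those of differently numbered libraries at -0.084 to 0.158. With the number as a replicate block 2482 genes were higher and 2094 lower. Genes near 1 FPKM, which include most noncoding genes and Sham levels of several receptors, rest on few reads.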

Other observations

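Of 9 immunoglobulin constant genes tested, which mark antibody-making cells, 4 rose in Model and none fell, by the adjusted p of limma, with a median log2 change of 1.22. Igkc, the kappa light chain, stood at 7.76, 0.977 and 6.78 scaled FPKM in the Sham libraries and 101.2, 93.6 and 17.9 in the Model libraries (log2 change 3.47, adjusted p = 0.025). Its call was lost with limma-voom (adjusted p = 0.158), with no filter (adjusted p = 0.064) and without Model replicate 1, Model replicate 2 or Sham replicate 2 (adjusted p of 0.075 to 0.091). Of 5 B lymphocyte markers tested Igkc alone was called. Ighm, the mu heavy chain, stood at 12.7, 8.86 and 15.2 in Sham and 10.8, 20.1 and 5.65 in Model, and Cd79a, Cd79b and Jchain, which joins secreted antibodies, were not called either. Of 26 immunoglobulin variable genes none was called. Of 19 mitochondrial transfer RNA genes none rose and 5 fell (26.3%, against 18% lower over all genes), with a median log2 change of -1.26. Such small RNAs are poorly caught by poly-T beads, so these reads cannot be read as their level. The mitochondrial share of reads was 14.6% to 23.6% in Sham and 10.8% to 15.3% in Model, ranges that overlap. Sdc1, a heparan sulfate proteoglycan of plasma cells and epithelium, rose by 2.27 on the log2 scale, and the hyaluronan receptor Cd44 rose by 1.63. Which cells the reads of Sdc1 and Cd44 came from was not tested.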
